A study of Mus musculus with 4 samples.

Results

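The genes described here are 49 genes of the cell cycle and of DNA replication, taken from a list of gene symbols and matched to the probes by name. All 49 had a probe on the array, and 46 had a probe free of outlier spots on all 4 arrays, out of 22047 named genes with such a probe. They cover 9 roles, from the cyclins and the transcription factors of cell cycle entry, through origin licensing, the replicative helicase and nucleotide synthesis, to the mitotic kinases, the spindle, cytokinesis and mitotic exit. The arrays measured RNA from whole liver of male mice killed after a fast, with 1 array for each of 4 groups and no repeats. The natural aging group received no drug. The aging diabetic group is the untreated disease model, the metformin group holds aging diabetic mice given metformin, and the combination group holds aging diabetic mice given astragalus polysaccharide (APS) plus metformin. Metformin is a glucose-lowering drug, and APS is a plant polysaccharide preparation. All titles carry 60d without saying what was counted. Strain, age, doses, the way diabetes was produced, and whether an array holds 1 mouse or a pool are not given in the labels used here.

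With 1 array per group there was no spread between mice to set a difference against, so no test was made and no difference below has a replicate check. Signals are given as a percent of the 75th percentile of all spots on the same array, so that 100% is a bright spot, and they compare 1 probe between arrays, never 1 gene with another. A difference of at least 2-fold was counted as higher or lower. The error given beside a log2 difference is the array software's error of the spots, which covers measurement only. Where a gene was well above background on 1 of a pair of arrays only, the fold is a lower bound, written as "at least". All arrays were on the same slide and scanned together. Between 33668 and 37402 of 59305 spots per array were well above background, and none was saturated. All 6 comparisons between pairs of groups were made, and those with an array in common are not independent.

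Adult liver is a mostly quiescent tissue in which few hepatocytes divide unless tissue is lost or injured. When a cell commits to division, E2F factors switch on the genes for origin licensing, the helicase and nucleotide supply. Later a second wave, driven through the MuvB complex with B-Myb and FoxM1, switches on the mitotic genes. The promoters of the first wave often carry E2F sites, and those of the second wave carry a cell cycle homology region (CHR), often near CCAAT boxes. In whole liver RNA, fewer dividing cells and less RNA per dividing cell cannot be told apart, and dividing cells may be hepatocytes or any other cell of the tissue.

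Sequences of 5 members that differed strongly between the arrays show how the 2 waves look in the genome. They are the helicase genes Mcm6 and Mcm5, the proliferation marker Mki67, the topoisomerase gene Top2a, and Ube2c, whose product helps to degrade mitotic cyclins. Each is the stretch of 250 bases before the annotated start of the gene, from RefSeq on build GRCm38.p6, read 5′ to 3′ on the strand of the gene. Mcm6 lies at chr1:128359706-128359955 on the minus strand, Mcm5 at chr8:75109259-75109508 on the plus strand, Mki67 at chr7:135716380-135716629 on the minus strand, Top2a at chr11:99024190-99024439 on the minus strand, and Ube2c at chr2:164769679-164769928 on the plus strand. Capitals mark matches to the motifs searched on both strands: for E2F, TTTGGCGC, TTTGCCGC, TTTCGCGC and TTTCCCGC; for CHR, TTTGAA; and the CCAAT box, CCAAT. A match on the other strand reads as the reverse complement, so ATTGG marks a CCAAT box and TTCAAA a CHR.
Mcm6: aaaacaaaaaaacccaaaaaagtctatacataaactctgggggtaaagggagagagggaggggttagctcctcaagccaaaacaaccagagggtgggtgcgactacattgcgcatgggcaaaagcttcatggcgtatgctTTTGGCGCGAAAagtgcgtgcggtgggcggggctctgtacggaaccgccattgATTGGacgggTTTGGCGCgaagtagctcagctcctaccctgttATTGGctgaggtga
Mcm5: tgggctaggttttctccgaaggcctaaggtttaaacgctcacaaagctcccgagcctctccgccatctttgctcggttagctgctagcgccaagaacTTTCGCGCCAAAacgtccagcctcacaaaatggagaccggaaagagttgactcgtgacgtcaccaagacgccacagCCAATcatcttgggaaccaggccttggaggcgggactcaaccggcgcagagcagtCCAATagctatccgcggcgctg
Mki67: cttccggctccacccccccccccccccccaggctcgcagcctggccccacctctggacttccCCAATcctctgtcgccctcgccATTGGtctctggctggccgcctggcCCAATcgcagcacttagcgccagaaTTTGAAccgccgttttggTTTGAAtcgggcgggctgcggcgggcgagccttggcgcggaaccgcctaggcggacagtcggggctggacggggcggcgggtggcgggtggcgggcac
Top2a: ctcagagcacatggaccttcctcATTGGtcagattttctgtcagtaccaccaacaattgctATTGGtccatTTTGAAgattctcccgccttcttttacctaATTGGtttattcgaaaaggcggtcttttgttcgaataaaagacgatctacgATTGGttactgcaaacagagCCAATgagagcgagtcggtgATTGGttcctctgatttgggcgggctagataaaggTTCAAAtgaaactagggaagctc
Ube2c: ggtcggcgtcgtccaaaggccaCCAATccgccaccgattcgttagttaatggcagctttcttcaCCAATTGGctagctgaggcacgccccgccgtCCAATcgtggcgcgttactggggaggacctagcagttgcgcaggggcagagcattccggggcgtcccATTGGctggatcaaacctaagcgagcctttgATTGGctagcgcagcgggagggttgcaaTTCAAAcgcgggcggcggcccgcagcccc

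In Mcm6 and in Mcm5, 1 run of capitals holds E2F matches on both strands that overlap each other, and Mcm6 has another E2F match nearer its start. Mki67 and Top2a each had 2 CHR matches and Ube2c had 1, with CCAAT boxes in all 5 stretches, and in Ube2c 1 run holds overlapping CCAAT matches of both strands. Over the window from 250 bases before to 50 bases after the start, 39 members were found in the RefSeq table. The members not found there were Aurkb, Mcm4, Ccna2, Foxm1, Ccne2, Ccnd1, Gins2, Gins1, Tpx2 and Kif20a. An E2F match was present in 9 of the 39 (23.1%), against 2.6% of all 27025 genes of the table, a gene being counted where any of its promoters matched. A CHR match was present in 20 (51.3%), against 20.2% of all genes. Both a CHR and a CCAAT match were present in 19 (48.7%), against 7.97%.

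The motifs were spread unevenly over the roles. Among 14 members of the replication roles (the E2F factors, licensing and helicase genes, and nucleotide synthesis), 7 had an E2F match, namely E2f2, Cdc6, Cdt1, Mcm3, Mcm5, Mcm6 and Mcm7, and 2 had a CHR match. Among 18 members of the mitosis roles, none had an E2F match and 14 (77.8%) had a CHR match, among them Plk1, Aurka, Prc1, Cdc20 and Cdca3. CCAAT matches were common in both, with 9 of 14 and 15 of 18, and were present for 41.1% of all genes of the table. Mki67, Top2a, Uhrf1, Ccne1, Ccnb1, Ccnb2 and Cdk1 were placed in neither set. Of these, Uhrf1 and Cdk1 had an E2F match, and Mki67, Top2a, Ccnb2 and Cdk1 had a CHR match. The contrast between the sets holds for this grouping only. These are letter matches in a fixed window and were not tested as binding sites.

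**Figure D1:**
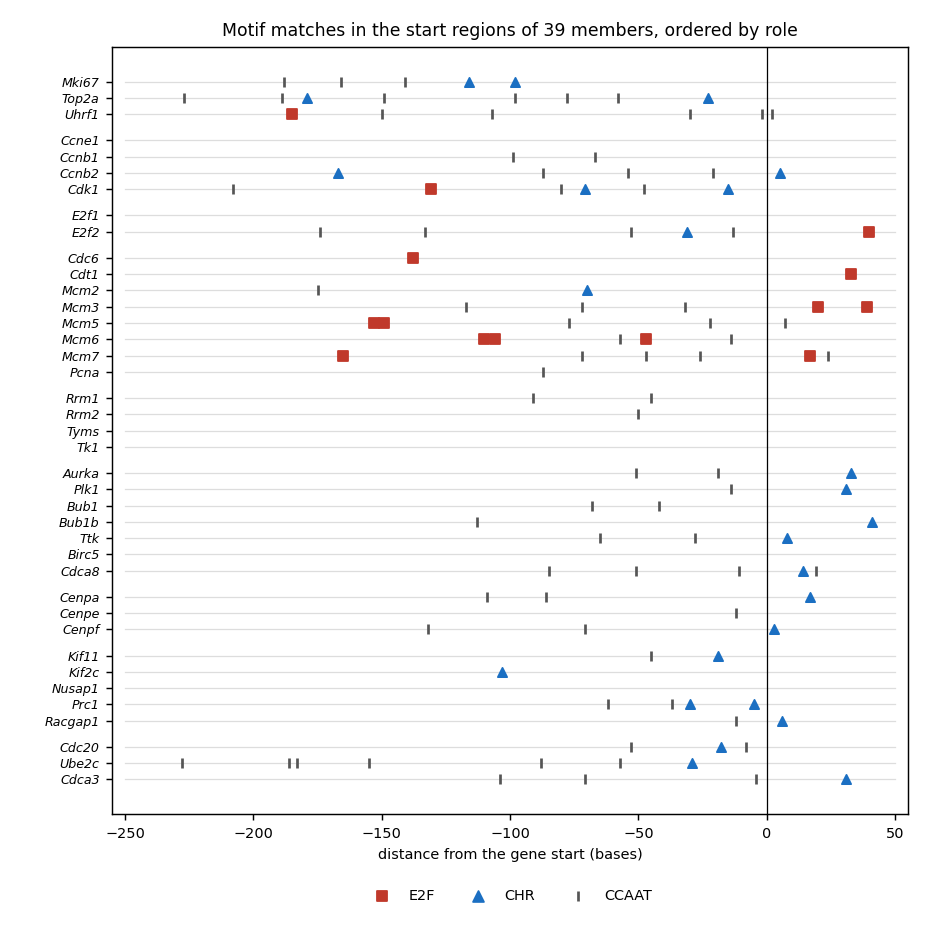
Positions of E2F (squares), CHR (triangles) and CCAAT (ticks) matches on either strand, by distance in bases from the annotated gene start, for the 39 members found in the promoter table, ordered by role. Squares lie mostly among the licensing and helicase genes, where 7 of 14 replication members have one, and triangles lie mostly among the mitotic genes in the lower rows, where 14 of 18 have one.

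The number of members well above background, of 46 with a usable probe, was 40 in natural aging, 34 in the diabetic state, 44 with metformin and 33 with the combination. Of all 59305 spots, 33668, 34895, 37402 and 35743 were well above background on these arrays, in the same order. The metformin array thus had the most over all spots too. On all 4 arrays 32 members passed this limit. The passenger complex kinase gene Aurkb alone was not well above background on any array. Foxm1, Ttk, Cenpf, Kif11 and Tpx2 were well above background on the metformin array only, and Ccne2 in natural aging only.

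**Figure D2:**
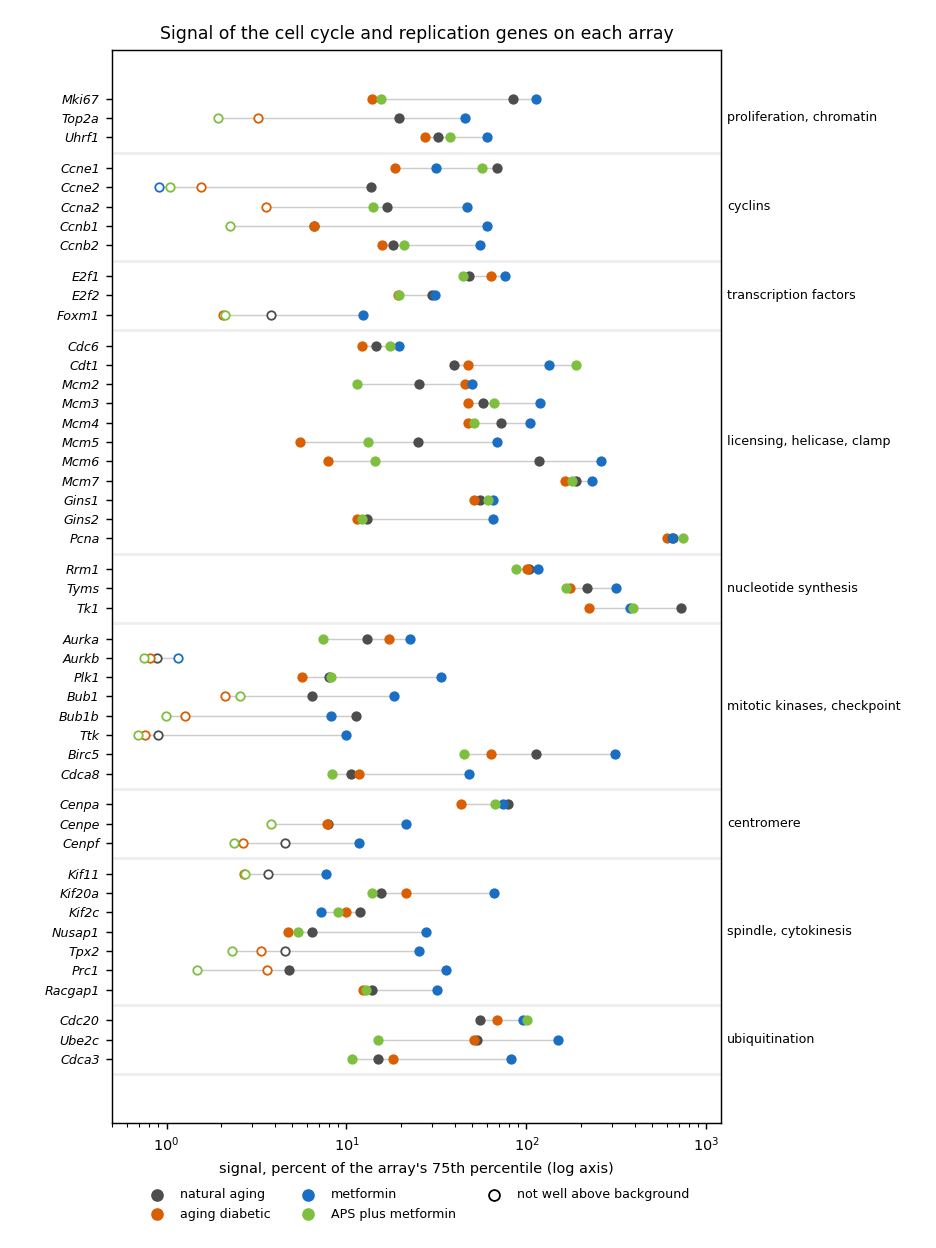
Signal of the 46 members with a usable probe, as percent of the array's 75th percentile on a log axis, 1 point per array and 1 row per gene, grouped by role. Open points were not well above background, and the blue metformin points lie at the right end of most rows, being highest in 25 of the 32 members well above background on all 4 arrays.

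The metformin array had the highest signal in 25 of the 32 members well above background throughout, against 23.5% of the 12689 genes well above background on all arrays. In 12 of the 32 it stood at least 2-fold above each of the other arrays, against 2.4% of those genes: Birc5, Ccnb2, Cdca3, Cdca8, Gins2, Kif20a, Mcm5, Mcm6, Nusap1, Plk1, Racgap1 and Ube2c. For Cdca8, a second probe given below had a smaller excess. The diabetic array had the lowest signal in 19 of the 32 (20.4% of those genes) and the highest in none (21.8%). The combination array had the lowest signal in 10 (22.4%). In 14 of the 32, the natural aging and metformin arrays both exceeded both other arrays, against 13.6% of those genes, and for Mki67 and Mcm6 they did so by at least 2-fold (0.78%).

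Mki67, whose product coats mitotic chromosomes and is the common proliferation marker, read 84.6% in natural aging, 13.9% in the diabetic state, 113% with metformin and 15.6% with the combination. The diabetic and combination arrays were alike and the others were several times brighter. Against natural aging, the diabetic array was 6.10-fold lower (log2 difference -2.61 ± 0.18), and the metformin array was 8.12-fold above the diabetic array (3.02 ± 0.18). The combination array differed from the diabetic array by 0.17 ± 0.19 and lay 7.23-fold below the metformin array.

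Top2a, which untangles DNA before chromosome segregation, was also bright on the natural aging and metformin arrays. It read 19.7% on the natural aging array and 45.3% on the metformin array. On the diabetic and combination arrays it was not well above background, with 3.24% and 1.92%. The metformin array was therefore at least 12.2-fold above the diabetic array and at least 12.98-fold above the combination array, and the diabetic array at least 5.31-fold below natural aging. A second Top2a probe read 5.58% and 23.5% on the natural aging and metformin arrays and was likewise not well above background on the others. Uhrf1, which carries DNA methylation through replication, read 32.4%, 27.5%, 60.3% and 37.4% on the natural aging, diabetic, metformin and combination arrays, the order used for all lists of 4 values that follow. The metformin array was 2.19-fold above the diabetic array, and no other pair among the first 4 comparisons reached 2-fold.

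The cyclins did not all follow 1 order. Ccna2, the cyclin of DNA synthesis and mitotic entry, read 16.8%, 3.59%, 47.0% and 14.1%, the diabetic value not being well above background. The metformin array was at least 12.7-fold above the diabetic array. A second Ccna2 probe, well above background throughout, read 19.4%, 6.18%, 41.6% and 5.12%. The probes gave the same direction for diabetic against natural aging and for metformin against diabetic. They disagreed on the combination array, which was at least 3.81-fold above the diabetic array by the first probe and slightly below it by the second.

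Ccnb1, the main mitotic cyclin, read 6.60%, 6.63%, 59.998% and 2.26%, the combination value not being well above background. Only the metformin array was bright, 9.05-fold above the diabetic array (3.18 ± 0.25) and at least 17.2-fold above the combination array. Its other probes, with 9.10% and 12.8% there, passed the background limit with metformin only. Ccnb2, its paralog, read 18.2%, 15.7%, 54.9% and 20.9%, so that the metformin array was 3.50-fold above the diabetic and 2.63-fold above the combination array.

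Ccne1 and Ccne2, the cyclins that drive entry into DNA synthesis, had their highest signal on the natural aging array. Ccne1 read 68.4%, 18.7%, 31.3% and 56.5%. Its diabetic value was 3.66-fold below natural aging (-1.87 ± 0.18), and the combination array was 3.02-fold above the diabetic array while the metformin array was 1.68-fold above it. Ccne2 was well above background with 13.7% on the natural aging array only, which put the diabetic array at least 3.70-fold lower and the metformin array at least 4.24-fold lower. Ccnd1, the cyclin that links growth signals to the cycle, and Cdk1, the mitotic kinase, each had a single probe with an outlier spot on the metformin array and entered no comparison. With that spot kept, Ccnd1 read 235%, 326%, 772% and 526%, and Cdk1 read 15.8%, 23.3%, 66.4% and 12.6%. Both were brightest on the metformin array, the array whose spot carried the outlier mark.

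Among the transcription factors, E2f1 and E2f2, activators of replication genes, stayed within 2-fold. E2f1 read 47.7%, 63.2%, 76.1% and 44.5%, and E2f2 read 29.8%, 19.4%, 31.2% and 19.6%. Foxm1, the activator of mitotic genes, read 12.4% on the metformin array and was not well above background elsewhere. That put the metformin array at least 2.84-fold above natural aging, at least 3.35-fold above the diabetic array and at least 3.56-fold above the combination array. A second Foxm1 probe was not well above background on any array.

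Origin licensing loads the MCM helicase, a ring of the products of Mcm2 to Mcm7, onto DNA with the help of Cdc6 and Cdt1. The 6 helicase genes differed widely in how far they varied. Mcm6 read 117%, 7.91%, 258% and 14.3%. Its diabetic value was 14.8-fold below natural aging (-3.89 ± 0.24), its metformin value 32.6-fold above diabetic (5.03 ± 0.23), and its combination value 18.0-fold below metformin. These were the largest differences among members well above background on both arrays in each of those comparisons. A second, dim Mcm6 probe read 4.72% and 6.70% on the natural aging and metformin arrays and was not well above background on the others.

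Mcm5 had the same order at a smaller size, with 25.1%, 5.49%, 68.8% and 13.1%. It was 4.57-fold lower on the diabetic than on the natural aging array and 12.5-fold higher on the metformin than on the diabetic array. The combination array lay 2.39-fold above the diabetic array (1.26 ± 0.30) and 5.25-fold below the metformin array. Mcm2 read 25.2%, 45.4%, 49.7% and 11.4%, a different order in which the diabetic and metformin arrays were alike and the combination array was 3.98-fold below diabetic (-1.99 ± 0.19). Mcm3, with 57.4%, 47.4%, 118% and 66.4%, and Mcm4, with 71.8%, 47.4%, 105% and 50.9%, were 2.49-fold and 2.22-fold higher on the metformin than on the diabetic array. Mcm7 read 189%, 163%, 233% and 178%, within 2-fold on every pair. The helicase subunits, which assemble in equal numbers, thus had RNA differences between the metformin and diabetic arrays from 1.095-fold for Mcm2 to 32.6-fold for Mcm6.

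Cdt1, the licensing factor, read 39.6%, 47.4%, 134% and 189%, and was the member with the largest excess of the combination over the diabetic array among those measured on both, 3.98-fold (1.99 ± 0.17). Both treated arrays were bright, with the metformin array 2.82-fold above diabetic. Cdc6 read 14.5%, 12.2%, 19.5% and 17.5%. The GINS complex joins the active helicase. Gins2 read 12.96%, 11.49%, 64.8% and 12.2%, a 5.64-fold excess on the metformin over the diabetic array, while its partner Gins1 read 54.8%, 51.1%, 65.1% and 60.9%. Pcna, the sliding clamp of the DNA polymerases, read 652%, 603%, 642% and 742%, and its largest difference among the first 4 comparisons was 1.23-fold.

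No nucleotide synthesis gene was 2-fold apart between the metformin and diabetic arrays. Rrm1, the large subunit of ribonucleotide reductase, read 103%, 101%, 116% and 87.5%, and Tyms, which makes thymidylate, read 216%, 175%, 315% and 166%. Tk1, the thymidine salvage kinase, read 718%, 224%, 376% and 389%, so that the natural aging array was brightest and the diabetic array 3.21-fold below it (-1.68 ± 0.16). A second Tk1 probe read 404%, 152%, 251% and 260%, in the same order. Rrm2, the small reductase subunit, had a single probe with an outlier spot on the diabetic array. With that spot kept it read 65.2%, 77.7%, 131% and 48.7%.

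Among the mitotic kinases and the checkpoint and passenger proteins, the metformin array was at least 2-fold above the diabetic array in 6 of 7 members compared (11.9% of all genes compared). Of 4 measured on both arrays, 3 were higher (9.82% of genes so measured), and Bub1, Bub1b and Ttk were bounds. Birc5, the passenger complex subunit survivin, read 113%, 63.4%, 310% and 45.0%, which is 4.89-fold higher on the metformin than on the diabetic array (2.29 ± 0.16) and 6.88-fold lower on the combination than on the metformin array. Cdca8, the borealin subunit of the same complex, read 10.6%, 11.8%, 48.0% and 8.30%. Plk1, the kinase of mitotic entry and exit, read 7.96%, 5.64%, 33.6% and 8.17%. For both, only the metformin array stood out, 4.07-fold and 5.96-fold above the diabetic array. A second Cdca8 probe, well above background throughout, read 12.7%, 11.2%, 22.6% and 11.1%. It was also brightest on the metformin array, but by less.

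Aurka, the spindle pole kinase, read 13.02%, 17.2%, 22.6% and 7.43%, so that the combination array was 2.32-fold below the diabetic (-1.21 ± 0.22) and 3.04-fold below the metformin array. Bub1 and Bub1b, kinases of the spindle checkpoint, passed the background limit in natural aging and with metformin only, with 6.45% and 18.3% for Bub1 and 11.3% and 8.19% for Bub1b. Bub1b was therefore at least 3.06-fold lower on the diabetic than on the natural aging array. Ttk, the checkpoint kinase at the kinetochore, read 9.87% on the metformin array, and a second probe read 3.36% there.

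Of the centromere genes, Cenpa, the centromeric histone, read 79.2%, 43.2%, 73.7% and 67.2%, within 2-fold throughout. Cenpe, a kinetochore motor, read 7.94%, 7.77%, 21.5% and 3.81%, the combination value not being well above background. The combination array was at least 5.65-fold below the metformin and at least 2.04-fold below the diabetic array. Cenpf, a kinetochore protein, read 11.7% on the metformin array, and its second probe 9.43% there, with neither well above background elsewhere.

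Of 7 spindle and cytokinesis genes, 6 were at least 2-fold higher on the metformin than on the diabetic array (11.9% of all genes). Of 4 measured on both arrays, 3 were higher (9.82% of genes so measured). On the combination array, 6 were at least 2-fold lower than on the metformin array (12.4% of all genes). Of 4 measured on both of these, 3 were lower (10.4% of genes so measured). In both comparisons, Kif11, Tpx2 and Prc1 were bounds. Prc1, which bundles the central spindle, read 35.6% on the metformin array and 4.79% on the natural aging array. It read 3.63% and 1.47% on the diabetic and combination arrays, where it was not well above background. The metformin array was at least 9.603-fold above the diabetic and at least 10.2-fold above the combination array. Kif20a, a cytokinesis motor, read 15.5%, 21.3%, 66.0% and 13.9%. Nusap1, which binds spindle microtubules, read 6.47%, 4.74%, 27.8% and 5.36%. Racgap1, which helps to place the cleavage furrow, read 13.8%, 12.4%, 32.0% and 12.9%. In these 3 genes the other arrays were within 2-fold of each other, and the metformin array exceeded the diabetic array 3.10-fold, 5.87-fold and 2.57-fold.

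Tpx2, which activates Aurora A on the spindle, read 25.1% on the metformin array, at least 5.49-fold above natural aging and at least 6.79-fold above the diabetic array. Kif11, the motor that separates the spindle poles, read 7.65% there. Kif2c, which trims microtubules at the kinetochore, was the exception, with 11.8%, 9.97%, 7.26% and 8.93%. A second Kif2c probe was well above background on the metformin array only, with 8.11%, so its probes disagree.

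Of the genes of mitotic ubiquitination, Ube2c read 53.2%, 51.3%, 150% and 14.9%. The metformin array was 2.92-fold above the diabetic array, and the combination array was 3.44-fold below the diabetic (-1.78 ± 0.18) and 10.1-fold below the metformin array. Cdca3, which promotes mitotic entry, read 15.0%, 18.1%, 82.5% and 10.71%. Cdc20, the activator of the anaphase-promoting complex, read 55.3%, 68.8%, 96.04% and 101% by its brighter probe, within 2-fold throughout. A second Cdc20 probe read 17.2%, 22.3%, 123% and 12.5%, with the metformin array far above the others, so the Cdc20 probes disagree on the metformin as well as on the combination array.

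The comparison of the diabetic with the natural aging array asks how the diabetic liver differed from aging alone. Of 40 members compared, 9 were at least 2-fold lower, against 6.09% of the 14453 genes compared, and none was higher (8.2% of genes). They were Mki67, Top2a, Ccne1, Ccne2, Ccna2, Mcm5, Mcm6, Tk1 and Bub1b. Of 34 measured on both arrays, 5 were lower (5.1% of genes so measured). The members' median log2 difference was -0.25 (-0.21 over the 34), against -0.04 for all genes compared. Members of the mitosis roles measured on both arrays were all within 2-fold of natural aging, with Cenpe at 1.02-fold. Ccnb1 was at 1.01-fold. Bub1 and Prc1 were at least 1.74-fold and at least 1.29-fold lower. Aurkb, Foxm1, Ttk, Cenpf, Kif11 and Tpx2 could not be compared. Other probes of these members existed for Top2a, Ccna2, Mcm6 and Tk1, and those of Ccna2 and Tk1 were also at least 2-fold lower.

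Metformin alone was compared with the untreated diabetic state. Of 44 members compared, 29 were at least 2-fold higher on the metformin array, against 11.9% of 15562 genes, and none was lower (3.53%). Of the 29, 19 were measured on both arrays, out of 34 (9.82% of genes so measured), and 10 were bounds. The members' median was 1.44 (1.23 over 34 measured on both arrays), while the median of all genes was near 0. By role, 6 of 11 licensing, helicase and clamp genes were higher, as were 6 of 7 spindle and cytokinesis genes, while none of the 3 nucleotide synthesis genes was. Of the spindle and cytokinesis genes measured on both arrays, 3 of 4 were higher. Of 12 other probes of the 29 members that could be compared, 10 were also at least 2-fold higher. The exceptions among these were the dim second probes of Mcm6 and Ttk. Further probes of Uhrf1, Foxm1, Racgap1 and Ttk were not well above background on any array and could not be compared.

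The same array was compared with natural aging. There, 24 of 45 members were at least 2-fold higher on the metformin array, against 13% of 15548 genes, and Ccne1 and Ccne2 were lower (4.71%). Of 39 measured on both arrays, 20 were higher (9.97% of genes so measured) and 1 lower (4.42%). The median was 1.14. Of 12 other probes of the called members that could be compared, 11 differed in the same direction but only 6 by at least 2-fold. The signal on the metformin array thus stood above natural aging as well as above the diabetic array for most mitotic members, while Mki67 (1.33-fold) and Mcm4 (1.46-fold) differed little from natural aging.

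With APS added to metformin, the members lay near the diabetic level. Against the diabetic array, 4 of 35 were at least 2-fold higher on the combination array (4.38% of 14734 genes), namely Ccne1, Ccna2, Cdt1 and Mcm5, and 4 were lower (6.9%), namely Mcm2, Aurka, Cenpe and Ube2c. Of 32 measured on both arrays, 3 were higher (3.69% of genes so measured) and 3 lower (6.16%). The median was 0.13. The call of Ccna2 rests on 1 of its 2 probes, as given above, and that of Mcm5 lay below 2-fold, at 0.87 on the log2 scale, when the background was corrected by the normexp method. The bound for Cenpe was also below 2-fold there, at -0.50.

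Between the treatments, 28 of 44 members were at least 2-fold lower on the combination than on the metformin array, against 12.4% of 15599 genes, and none was higher (2.37%). Of 33 measured on both arrays, 17 were lower (10.4% of genes so measured). The median was -1.55 (-1.05 over the 33). Of 10 other probes of these members that could be compared, 8 were also at least 2-fold lower. Cdt1, Ccne1, Pcna, Tk1, Cdc20 and Kif2c were the members with a positive difference, from 1.03-fold for Tk1 to 1.80-fold for Ccne1. This comparison shares the metformin array with both comparisons of that array given above, so 1 bright array enters all 3. Against natural aging, 9 of 40 members were lower on the combination array (6.68% of 14634 genes) and Cdt1 was higher (6.14%), at 4.76-fold. Of 33 measured on both arrays, 5 were lower (5.79% of genes so measured) and 1 higher (5.08%).

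**Figure D3:**
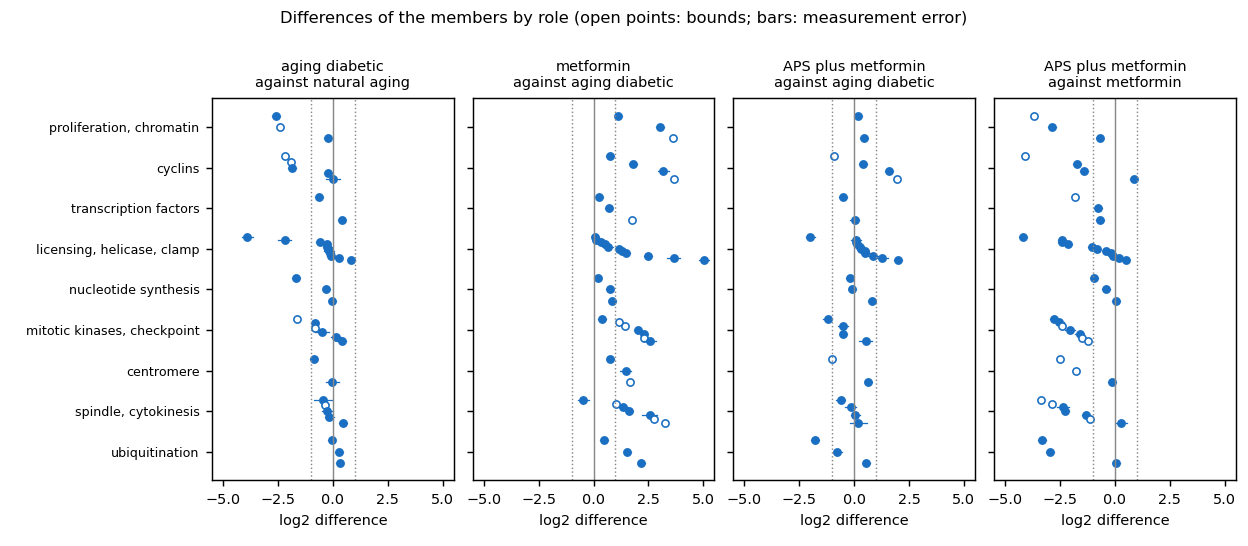
Log2 differences of the members by role in 4 comparisons, with 1 point per gene, bars for the measurement error of the spots, and open points for bounds. Dotted lines mark 2-fold, and points lie mostly to the right for metformin against aging diabetic (29 of 44 past 2-fold) and to the left for APS plus metformin against metformin (28 of 44).

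Other genes of these pathways, listed by role and not members, were read in the same way. In the mitosis and cytokinesis list, 25 of 56 genes (44.6%) were at least 2-fold higher on the metformin than on the diabetic array, against 11.9% of all genes, and none was lower. Of 38 measured on both arrays, 15 were higher (9.82% of genes so measured), and the other calls were bounds. On the combination array, 31 of 57 (54.4%) were lower than on the metformin array, against 12.4% of all genes, and none was higher. Of 38 measured on both of these arrays, 20 were lower (10.4% of genes so measured). In the other comparisons with the diabetic array the shares were near those of all genes. On the diabetic array, 2 of 41 were higher (4.88%, against 8.2% of all genes) and 3 lower (7.32%, against 6.09%) than on the natural aging array. On the combination array, 2 of 41 were higher (4.88%, against 4.38%) and 4 lower (9.76%, against 6.9%) than on the diabetic array.

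Within that list, Shcbp1, a cytokinesis protein, read 7.67%, 4.05%, 34.6% and 3.69%, with the metformin array 8.54-fold above the diabetic and the combination array 9.38-fold below the metformin array. Ckap2, a spindle protein, read 4.80%, 20.8%, 145% and 19.0%, which was also 4.33-fold higher on the diabetic than on the natural aging array. The kinetochore gene Ndc80 read 4.80% and 23.9% on the natural aging and metformin arrays and 4.28% on the combination array, and 3.63% on the diabetic array, where it was not well above background. Kntc1, of the kinetochore, read 4.71%, 10.97%, 40.4% and 14.9%. These 4 genes were brightest on the metformin array.

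Other genes of the list differed from these on the combination or natural aging array. Cenpm, a centromere protein, read 51.7%, 11.3%, 424% and 433%, so that the metformin and combination arrays were 37.4-fold and 38.2-fold above the diabetic array. Ncaph, a condensin subunit, read 21.96%, 5.15%, 35.4% and 7.90%, bright on the natural aging and metformin arrays as Mki67 was. Spc25, a kinetochore protein, read 140%, 197%, 260% and 74.9%, and the kinase gene Nek2 read 50.7%, 66.3%, 89.3% and 26.1%, both lowest on the combination array.

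In the replication list, 5 of 42 genes on the metformin array were at least 2-fold higher than on the diabetic array, which is 11.9% as for all genes, and none was lower. On the combination array, 3 of 42 (7.14%) were lower than on the metformin array, against 12.4% of all genes. Chaf1a, a histone chaperone at the fork, read 8.65%, 7.13%, 44.1% and 38.3%, and Dbf4, the activator of the origin kinase Cdc7, read 21.0%, 8.79%, 35.9% and 40.2%. Both treated arrays were brighter than the diabetic array for these 2 genes. The polymerase genes Pole (9.94%, 12.2%, 39.9% and 16.99%), Pold1 (15.7%, 28.02%, 41.4% and 13.8%) and Pola1 (40.7%, 23.8%, 50.7% and 25.0%) were brightest on the metformin array. Mcm8, a helicase of repair, read 12.97%, 26.9%, 30.7% and 19.0%. Mcm10, an origin firing factor, read 1374%, 667%, 463% and 563%, brightest on the natural aging array. Rfc3, of the clamp loader, read 139%, 189%, 315% and 320%.

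In the list of cyclins, cyclin-dependent kinases, their inhibitors and regulators, 5 of 33 genes (15.2%) were at least 2-fold higher and 1 (3.03%) lower on the metformin than on the diabetic array, against 11.9% and 3.53% of all genes. On the combination array, 6 of 33 (18.2%) were lower and 1 (3.03%) higher than on the metformin array, against 12.4% and 2.37%. These shares were near those of all genes. E2f8, a repressor of E2F targets, read 141%, 18.7%, 52.3% and 23.7%, the diabetic array being 7.57-fold below natural aging (-2.92 ± 0.17). Its partner E2f7 read 16.03%, 16.3%, 16.97% and 19.99%. Rb1, the retinoblastoma protein that restrains E2F, read 35.1%, 38.6%, 59.4% and 65.5%. Neither E2f7 nor Rb1 was 2-fold apart on any pair.

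Some cell cycle inhibitors were also brightest on the metformin array, as were 23.5% of the genes well above background on all arrays. Cdkn1a, which encodes p21, read 137%, 222%, 310% and 108%. Cdkn1c, which encodes p57, read 53.7%, 119%, 244% and 198%, and Cdkn2b, which encodes p15, read 12.96%, 15.6%, 29.3% and 6.19%. Of Cdkn1a, Cdkn1c and Cdkn2b, only Cdkn1c was at least 2-fold higher on the metformin than on the diabetic array. Another inhibitor gene, Cdkn1b, which the naming rule did not pick, was brightest on the combination array, with 134%, 213%, 227% and 270%. Cdkn2a, the senescence-associated p16 and p19 gene, was not well above background on any array. Cdkn3, a phosphatase of cyclin-dependent kinases that is itself made in mitosis, read 9.67%, 10.68%, 86.6% and 4.95%, with the combination array 17.5-fold below the metformin array. Pkmyt1, an inhibitory kinase of Cdk1, read 13.1%, 9.97%, 40.1% and 10.997%. Cdk2 read 18.4%, 8.74%, 12.6% and 17.6%. Lin9, of the MuvB complex, read 12.7%, 12.3%, 20.9% and 27.5%, and Lin54 of the same complex read 93.3%, 118%, 151% and 223%.

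**Figure D4:**
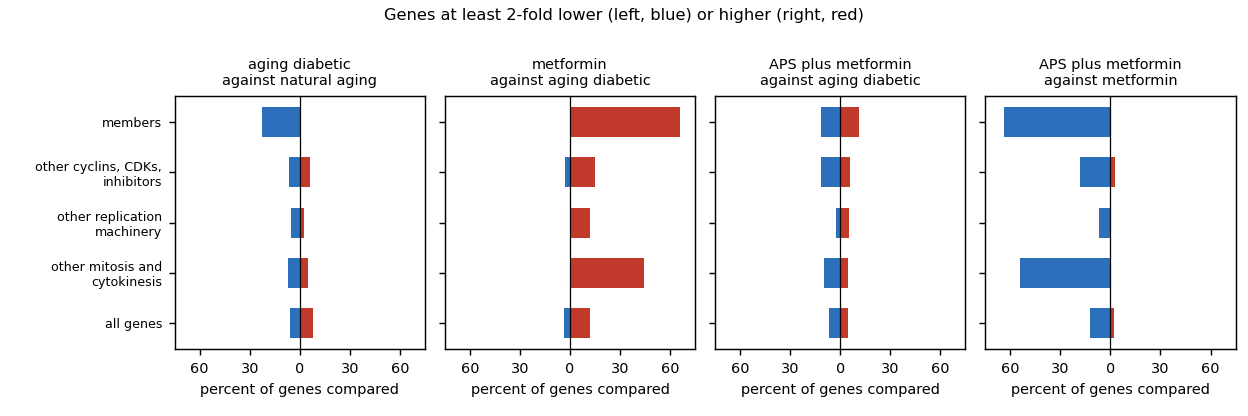
Percent of genes compared that were at least 2-fold lower (left, blue) or higher (right, red), for the members, the 3 lists of other cell cycle genes and all genes, in 4 comparisons. The members and the mitosis list have long bars in the comparisons that hold the metformin array, with 29 of 44 members and 25 of 56 mitosis genes higher against aging diabetic, while the replication list stands at 5 of 42, the 11.9% of all genes. Bounds are counted in all bars.

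Markers of cell types other than hepatocytes also differed between the arrays. The summed signal of the 6 usable hepatocyte markers was 13026%, 10608%, 8518% and 11126%, none of the 6 being 2-fold apart in any comparison, and all 6 were well above background on every array. The 11 T and NK cell markers summed to 252%, 99.4%, 601% and 140%. Of these 11, 10 were at least 2-fold higher on the metformin than on the diabetic array (11.9% of all genes). On the combination array 11 were lower than on the metformin array (12.4%), and 7 were lower on the diabetic than on the natural aging array (6.09%). Only Gzmb on the diabetic array was not well above background. The summed T and NK cell signal, like that of the stellate cell and fibroblast list below, ranked the arrays in the same order as Mki67 and Mcm6 did. Within these lists, Cd3d, Cd8a, Klrk1, Il2rb, Col1a1 and Des had other orders. Members lowest on the combination array, such as Birc5 and Ube2c, had another order too. The part of T and NK cells in the results for the members was not tested.

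Other lists moved too. The 5 usable stellate cell and fibroblast markers summed to 885%, 360%, 1182% and 467%, and 4 of 5 were at least 2-fold higher on the metformin than on the diabetic array (11.9% of all genes). The 8 macrophage markers summed to 4087%, 2894%, 3531% and 2322%. Within them, the monocyte chemokine receptor genes Cx3cr1 and Ccr2 stood 12.3-fold and 6.32-fold above the diabetic array with metformin, and the scavenger receptor gene Marco was 2.62-fold lower. The 6 endothelial markers summed to 2427%, 1700%, 2061% and 2021%, and the 5 usable cholangiocyte markers to 270%, 189%, 266% and 130%. The 6 usable neutrophil markers summed to 531%, 205%, 294% and 110%. Most of that sum was S100a9, with 453%, 142%, 248% and 92.3%. Between the metformin and diabetic arrays, 3 neutrophil markers had a positive difference and 3 a negative one. The negative ones were Elane, Ngp and Camp, with Elane and Ngp not well above background on the metformin array. The 6 usable pancreatic acinar markers, genes of the exocrine pancreas, summed to 3753%, 169%, 641% and 16.3%, with 4 of 6 not well above background on the combination array. The part of these cells in the results for the members was not tested.

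For B cells and erythroid precursors, several defining markers were dim. Cd79a and Blk were not well above background on any array, Ms4a1 was well above background on the metformin array only, and the 6 B and plasma cell markers used summed to 749.6%, 544%, 534% and 598%. Most of that sum was Cd22, with 634%, 509%, 451% and 533%, and 2 of the dimmer markers went the other way, Cd79b being 2.49-fold and Ms4a1 at least 2.45-fold higher on the metformin than on the diabetic array. Gata1 and Hemgn passed the background limit in natural aging only, and Rhag on no array. The 6 erythroid markers used summed to 596%, 275%, 349.9% and 397%, so that the metformin array was below natural aging. Most of that sum was Alas2, with 448%, 183%, 260% and 230%. Of 5 erythroid markers compared between those 2 arrays, 4 were lower with metformin. Epor went the other way, with 18.9% in natural aging and 43.8% with metformin.

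**Figure D5:**
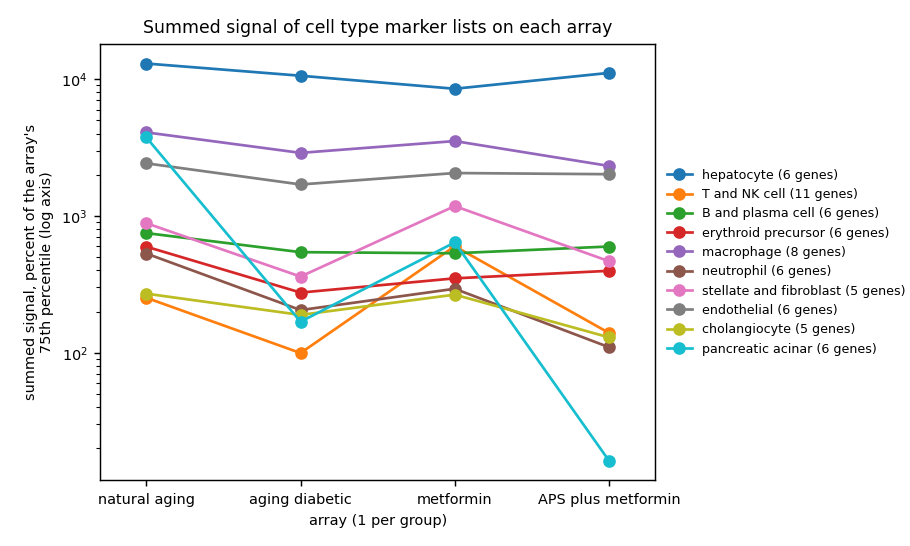
Summed signal of each cell type marker list on the 4 arrays, as percent of the array's 75th percentile on a log axis, with 1 point per array and a line joining the points of a list. The T and NK cell list stands at 252, 99.4, 601 and 140, low on the diabetic and combination arrays, while the hepatocyte list varies from 8518 to 13026.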

How the data were processed

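RNA was labelled with Cy5 and hybridised to 1-colour Agilent arrays, per the labels' protocols. The deposited intensity of each spot (the red processed signal, background-corrected) came from Feature Extraction, version 11.5.1.1 per the file headers and 10.7 per the submitters' processing notes. The authors' deposited series table holds normalized log2 values from GeneSpring, per the labels, and served as an alternative. How that normalization was set is not given in the sources used here.

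Here, control spots and spots with an outlier mark were left out, and log2 signals had the array's 75th percentile subtracted. Of 56605 probes, 33767 were named through their accession with RefSeq tables, giving 23462 symbols. A gene took its probe with the highest mean over the 4 arrays, and 20 members had several usable probes. Signals well above background were taken from the deposited flag (a score of 0 or 1, per the file headers). For a bound, the dim array took its own signal or, where brighter, the faintest signal there that passed the background limit. Errors are the deposited intensity errors of the spots, combined in quadrature. Members, lists and motifs were chosen with earlier results of these data known. Of the marker lists, 2 genes are not reported here and were left out of the sums. Values on all arrays were to be printed for members well above background throughout with a 2-fold difference in the first 4 comparisons, for the 3 largest bounds per comparison, and for 5 set genes (Mki67, Top2a, Ccnd1, Pcna and Cdk1). From each pathway list the 3 largest measured differences per comparison were named, with Cdkn1a, Cdkn2a, Rb1, E2f7 and E2f8. The calls were checked on simulated arrays with planted differences. Alternatives were quantile normalization, the authors' values, normexp (offset 50) on median signals (chosen after seeing the files, since they hold no mean signal), outlier spots kept, the mean of a gene's probes and 3 other filters on dim signals. Python 3.11.15, numpy 2.4.6, pandas 2.3.3 and, in R 4.3.3, limma 3.58.1 were used.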

Additional observations from a re-analysis of the deposited data

How the results depend on the processing

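No paired analysis was possible because each group has 1 array. The calls of the first 4 comparisons kept their direction under each of the 8 alternatives that gave them a value (47 and 44 of 74 under the filters for both and all 4 arrays). The medians of all 6 comparisons did so too, except that APS plus metformin against aging diabetic was 0 with dim signals floored. Of 74 called member differences in the first 4 comparisons, 71 stayed past 2-fold after quantile normalization, 71 with the authors' values, 71 with the mean of probes, 68 with normexp, and 74 with outlier spots kept or with dim signals floored. Those that did not, under 1 setting or more, were differences of Kif11, Ttk, Bub1b, Mcm4, Mcm5, Ccna2 and Cenpe. The sizes of the differences were less stable than the calls. Of the 74, 56 were scored as moved with normexp, 20 with the mean of probes and 3 with quantile normalization. The counts move most with the filter, because bounds drop out. Requiring signal well above background on both arrays, or on all 4, left 19 or 17 members higher for metformin against aging diabetic, 17 or 16 lower for APS plus metformin against metformin, 5 or 5 lower for aging diabetic against natural aging, 5 or 5 lower for APS plus metformin against natural aging, and 1 or 1 lower for metformin against natural aging. On all 4 arrays, 14 were higher for metformin against natural aging. Over the 12689 genes on all 4 arrays, these counts were 1049, 1117, 616, 715, 514 and 1252, in the same order. The medians under both arrays, all 4 arrays and normexp were 1.23, 1.14 and 1.14 for metformin against aging diabetic, and -1.05, -0.99 and -1.33 for APS plus metformin against metformin. For metformin against natural aging the median was 0.85 on all 4 arrays and 0.89 with normexp. With outlier spots kept, 2 members were higher for APS plus metformin against natural aging. With 1 array per group, none of these settings bears on the spread between mice.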
